A study of Mus musculus with 9 samples.

Results

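The Siglec family was followed in neutrophils sorted from 4 sites of chemically induced skin carcinogenesis in the mouse. Its members were the probes, other than controls, that the array design assigned to Siglec5, Siglece, Cd33, Siglecg, Cd22, Siglec1 or Siglech, and the rule gave 12 probes of 7 genes among 55681 probes. Siglec5 is the name that the array design uses for mouse SiglecF, and the accession of both Siglec5 probes belongs to Siglecf in the RefSeq gene table of assembly GRCm38.p6. Of the 12 probes, 11 were matched to that table by accession, and 1 Siglech probe was not. Gr-1bright neutrophils came from the skin around papillomas (papilloma skin, 2 arrays), the skin around established carcinomas (tumor skin, 2 arrays), papillomas (3 arrays) and carcinomas (tumor, 2 arrays). All groups shared the strain, FVB/N, and the carcinogen: DMBA, a mutagen, was applied at the age of 6 and 13 weeks, and PMA, a tumor promoter, was painted on 2 times a week from week 1 until weeks 18 to 20, as the labels count them, so no array held untreated skin. RNA of each array came from several pooled mice, and the arrays are therefore the replicates.

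Siglecs are lectins of the immunoglobulin superfamily that bind sialic acid at the ends of sugar chains, on the same cell or on neighboring cells. Most carry an immunoreceptor tyrosine-based inhibitory motif (ITIM) in the cytoplasmic tail, which recruits phosphatases such as SHP-1 (Ptpn6) and SHP-2 (Ptpn11) and dampens activation. SiglecF is best known from eosinophils and alveolar macrophages and has also been described on neutrophils in tumors, Siglec-E is an inhibitory receptor of mouse neutrophils and monocytes, and CD33 is found on myeloid cells. Siglec-G and CD22 restrain B cell receptor signaling, Siglec-1 (sialoadhesin) is a macrophage receptor without an inhibitory motif, and Siglec-H marks plasmacytoid dendritic cells and signals through the adaptor DAP12.

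The 12 probes are 60 bases long, and by the array's mm9 annotation 10 of them, for 6 genes, lie on chromosome 7 and 2, for Siglec1, on chromosome 2. Each is placed in a transcript and is thus exonic, while coding and untranslated parts are not given in the sources used here. The Siglec5 probes are shown because the main result rests on them. Probe A_55_P2043277 lies at chr7:50614768-50614827 on the plus strand and A_55_P2115406 at chr7:50611746-50611805 on the plus strand. The Siglecg probes are shown because both were called lower in papillomas, A_51_P305052 at chr7:50668051-50673194 (plus strand, on both sides of an intron) and A_55_P2034875 at chr7:50667115-50667174 (plus strand). The probes of Cd22 (A_55_P2016004, chr7:31651249-31651308, minus strand) and Siglech (A_55_P2141013, chr7:63034088-63034147, plus strand) are shown for their repeats. Sequences are written 5′ to 3′, in part (30 bases) for A_55_P2043277, A_55_P2016004 and A_55_P2141013, and capitals mark the longest stretch that also occurs, on either strand, in a probe of another gene name on the array.
Siglec5 A_55_P2043277: cagtcagTGCTTGTCAATGAAAtataaata
Siglec5 A_55_P2115406: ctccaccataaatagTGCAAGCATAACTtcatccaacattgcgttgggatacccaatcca
Siglecg A_51_P305052: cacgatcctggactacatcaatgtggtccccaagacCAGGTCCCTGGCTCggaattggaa
Siglecg A_55_P2034875: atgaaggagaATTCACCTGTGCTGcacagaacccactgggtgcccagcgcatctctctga
Cd22 A_55_P2016004: tgAAAAACCAACCAACCAACCAAACAAAaa
Siglech A_55_P2141013: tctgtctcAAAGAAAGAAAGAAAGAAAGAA
The stretches shared by the Siglec5 and Siglecg probes are short, 13 to 15 bases. The Cd22 probe holds an AACC repeat and shares a stretch of 26 bases, and 4 probes of other genes share at least 20 bases with it. The Siglech probe holds an AAAG repeat of 22 bases, and 3 probes of other genes share at least 20 bases with this probe. The levels of the Cd22 and Siglech probes may therefore include other transcripts.

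The values are those of the table that the authors deposited, 1 log2 value per probe and array, and its 9 columns had medians of 6.08 to 6.12. Before any group was compared, the columns were set against the scanner output of the same arrays. For 7 columns, Spearman's rho over all probes with the array's own file was 0.930 to 0.980, whereas rho was 0.584 in the column papilloma skin 1 and 0.825 in the column tumor 1. Both were closest to the file of tumor 2 (0.923 and 0.946) and so go against their own files. Columns papilloma 2 and papilloma 3 were each closest to the file of the other, which leaves the group unchanged. The arrays sat on 3 slides. Spike-in slopes were 0.678 to 0.894 on papilloma skin 1, tumor skin 1 and tumor 1, where 90.7% to 95% of probes were well above background, and 1.04 to 1.06 on the other 6 arrays, where 44.2% to 64.2% were.

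Neutrophil markers were read in the sorted cells, and some were high in every group while others differed between groups. S100a9, an abundant calcium-binding protein of neutrophils, averaged 18.5 to 18.6 in the groups, and Csf3r, the G-CSF receptor, 16.7 to 16.8 on the log2 scale. Ly6g, a marker of neutrophils, averaged 10.3 in tumor, 12.4 in tumor skin, 9.56 in papilloma and 10.6 in papilloma skin. It was among the 7 of 13 neutrophil probes that were lower in tumor than in tumor skin, and 5 of 13 were lower in papilloma than in papilloma skin.

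Siglec5 was higher in tumor neutrophils than in neutrophils of the skin around tumors, by both probes. With A_55_P2043277 the log2 level was 12.87 and 12.74 in tumor, 11.68 and 11.18 in tumor skin, 11.17, 11.82 and 11.59 in papilloma and 11.80 and 11.61 in papilloma skin. Both tumor values lay above all 7 others, and the other 3 groups overlapped. With A_55_P2115406 it was 9.49 and 9.57 in tumor, 8.21 and 7.67 in tumor skin, 7.95, 8.69 and 8.40 in papilloma and 8.82 and 8.66 in papilloma skin. Both tumor arrays were again the highest, and here papilloma skin lay above tumor skin without overlap.

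**Figure D1:**
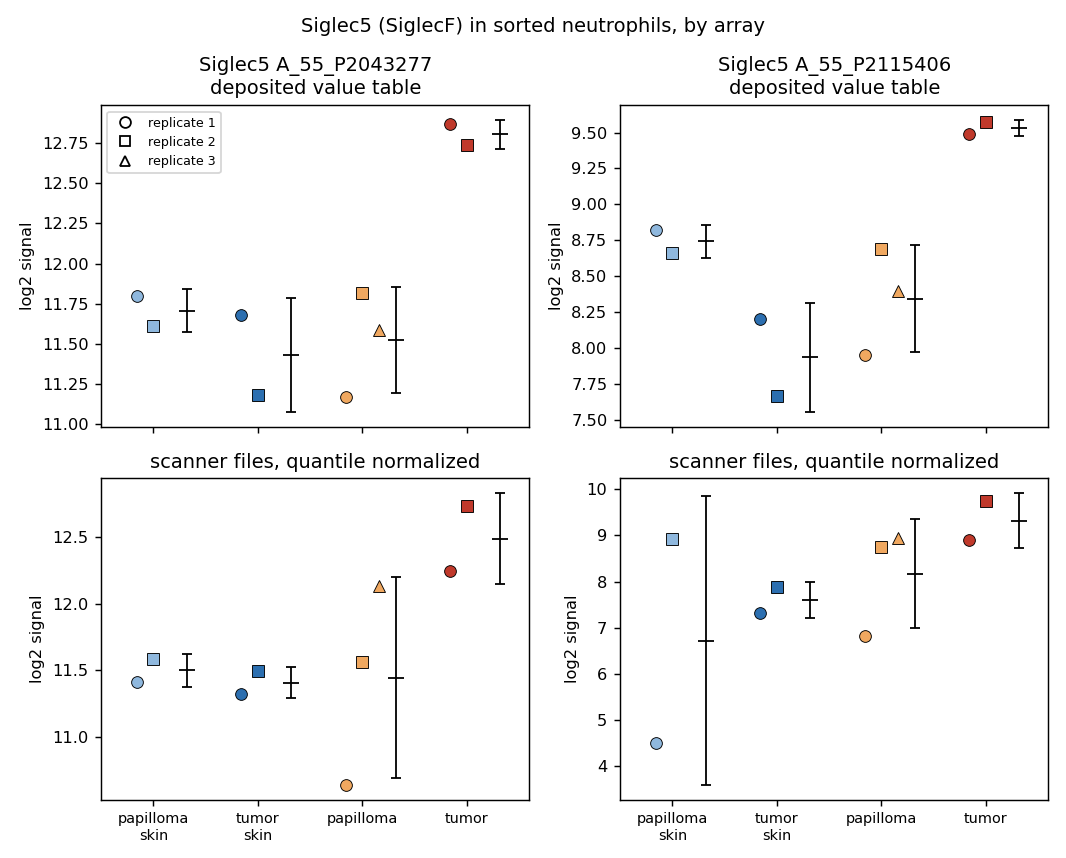
Siglec5 log2 signal of each array for probes A_55_P2043277 (left) and A_55_P2115406 (right), from the deposited table (top) and from the quantile-normalized scanner files (bottom); point shape gives the replicate and bars beside the points the group mean and SD (n = 2 or 3). In the table both tumor arrays lie above all others for both probes, and in the scanner files papilloma skin 1 falls to 4.51 for A_55_P2115406.

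In limma over all probes, Siglec5 rose in tumor against tumor skin by 1.38 on the log2 scale, or 2.60-fold (SE 0.245, 95% interval 0.81 to 1.94, adjusted p = 0.0138), with A_55_P2043277. It rose by 1.59, or 3.02-fold (SE 0.262, interval 0.99 to 2.19, adjusted p = 0.0104), with A_55_P2115406. A probe was called, here and below, when its adjusted p was 0.05 or less, its log2 difference 1 or more in size and its mean level over the arrays 6 or more. In such sorted bulk RNA, more cells that carry Siglec5 and more Siglec5 RNA per cell cannot be told apart. On slide 1, the only slide with both groups, tumor exceeded tumor skin by 1.19 and 1.28. Both differences kept their sign but not the call with slide in the model (1.28, adjusted p = 0.140, and 1.45, adjusted p = 0.119) and without the columns papilloma skin 1 and tumor 1 (1.31, adjusted p = 0.0895, and 1.64, adjusted p = 0.0699). Leaving out tumor 2 alone also ended both calls (1.44, adjusted p = 0.0796, and 1.55, adjusted p = 0.0784), and that of A_55_P2043277 ended without tumor 1 (1.31, adjusted p = 0.0685) or tumor skin 2 (1.13, adjusted p = 0.0593).

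In papillomas Siglec5 was not called. The difference to papilloma skin was -0.18 (SE 0.224, interval -0.70 to 0.33, adjusted p = 0.708 in limma) and -0.40 (SE 0.239, interval -0.95 to 0.15, adjusted p = 0.397). The sign depended on the slide, with -0.63 and -0.87 on slide 1 against 0.21 and 0.02 on slide 2. Tumor exceeded papilloma by 1.28 (interval 0.77 to 1.80, adjusted p = 0.0543) and 1.19 (interval 0.64 to 1.73, adjusted p = 0.0878), which missed the threshold although the arrays did not overlap. Within slides tumor exceeded papilloma by 1.70 and 0.93 with A_55_P2043277 and by 1.54 and 0.88 with A_55_P2115406. Tumor skin differed from papilloma skin by -0.28 (adjusted p = 0.518) and -0.81 (adjusted p = 0.138). The test of whether the lesion effect differed between the stages gave 1.56 (SE 0.332, adjusted p = 0.146) and 1.99 (SE 0.354, adjusted p = 0.121), which did not pass the threshold.

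The scanner files were read as a second source. After quantile normalization the log2 signal of A_55_P2043277 was 12.25 and 12.73 in tumor, 11.32 and 11.49 in tumor skin, 10.64, 11.56 and 12.13 in papilloma and 11.41 and 11.58 in papilloma skin. Tumor again lay above all other arrays, with papilloma 3 next. Scaled to the 75th percentile instead, tumor 1 stood at 11.60, below tumor skin 2 at 12.06, papilloma skin 2 at 12.07, papilloma 2 at 12.02 and papilloma 3 at 12.69, so tumor overlapped tumor skin in that scaling. For A_55_P2115406 the quantile-normalized signal was 8.89 and 9.75 in tumor, 7.33 and 7.87 in tumor skin, 6.82, 8.75 and 8.95 in papilloma and 4.51 and 8.93 in papilloma skin. Tumor stayed above tumor skin but overlapped papilloma and papilloma skin, and papilloma skin 1 stood far below the rest. In the quantile-normalized values the difference between tumor and tumor skin was 1.08 for A_55_P2043277 and 1.72 for A_55_P2115406. No probe of any gene was called there in that comparison (1437 probes had an unadjusted p below 0.05 in limma). Between papilloma and papilloma skin the quantile-normalized difference was -0.05 for A_55_P2043277 and 1.45 for A_55_P2115406. Scaled to the 75th percentile it was 0.91 and 0.74, and over the 6 arrays with full spike-in slopes -0.16 and -0.90. The sign of the papilloma difference thus depended on the scaling and the arrays used.

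The probes most like Siglec5 A_55_P2043277 over the 9 columns, among 17311 probes of named genes at a mean level of at least 6, were those of Strn3 (Pearson's r = 0.985), Irgm1 (0.973 and 0.970, 2 probes), Tmem128 (0.971) and Rnpc3 (0.966). These values describe 9 columns that fall into groups. Irgm1, an interferon-inducible GTPase, averaged 11.96 in tumor, 10.38 in tumor skin, 10.69 in papilloma and 10.72 in papilloma skin with A_51_P262171. The second Siglec5 probe had an r of 0.950 with the first.

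Siglece, the inhibitory receptor of neutrophils, ran the other way. Its log2 level was 12.23 and 12.44 in tumor skin, 11.34 and 11.97 in papilloma skin, 11.85, 11.56 and 11.82 in papilloma and 11.44 and 11.03 in tumor. Tumor skin was the highest group without overlap, and tumor overlapped only with papilloma skin. Siglece fell by 1.10 on the log2 scale, a 2.14-fold change (SE 0.243, interval -1.66 to -0.54, adjusted p = 0.0296 in limma), in tumor against tumor skin, with a difference of -0.79 on slide 1. The call held without the columns papilloma skin 1 and tumor 1 (-1.30, adjusted p = 0.0375) and was lost with slide in the model (-1.01, adjusted p = 0.199) and when any of tumor skin 1, tumor skin 2, papilloma 3, tumor 1 or tumor 2 was left out. Between papilloma and papilloma skin the difference was 0.09 (interval -0.42 to 0.60, adjusted p = 0.864).

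Cd33 was measured at 13.61 and 13.24 in tumor skin, 11.63 and 12.74 in papilloma skin, 12.50, 12.93 and 12.62 in papilloma and 13.16 and 12.32 in tumor. Tumor skin was highest, and papilloma skin 1, one of the columns that go against their files, was lowest. No comparison of Cd33 was called. The difference between tumor and tumor skin was -0.68 (interval -1.58 to 0.21, adjusted p = 0.306), and that between tumor skin and papilloma skin 1.24 (interval 0.35 to 2.14, adjusted p = 0.131). The latter was 0.69 (adjusted p = 0.355) without papilloma skin 1 and tumor 1, and 0.14 over the 6 scanner arrays with full spike-in slopes.

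Siglecg, known from B cells, had lower levels in both kinds of lesion than in the skin around them by A_51_P305052. With this probe the log2 level was 9.13 and 9.27 in papilloma skin, 8.17 and 8.44 in tumor skin, 7.61, 7.39 and 7.64 in papilloma and 7.04 and 6.92 in tumor. The groups stood in that order with no overlap between any of them. The probe fell by 1.66 (3.16-fold, SE 0.149, adjusted p = 0.000826) in papilloma against papilloma skin and by 1.33 (2.51-fold, SE 0.163, adjusted p = 0.00394) in tumor against tumor skin. Within slides the papilloma difference was -1.52 and -1.89 and the tumor difference -1.13. With slide in the model the papilloma call held (-1.73, adjusted p = 0.0134) and the tumor call was lost (-1.21, adjusted p = 0.0807). Both held without the columns papilloma skin 1 and tumor 1 (-1.73, adjusted p = 0.0248, and -1.39, adjusted p = 0.0338).

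The second Siglecg probe, A_55_P2034875, lay near the detection limit outside papilloma skin. Its log2 level was 7.23 and 7.24 in papilloma skin, 5.89 and 5.78 in tumor skin, 5.98, 6.02 and 6.15 in papilloma and 5.67 and 5.54 in tumor. Papilloma skin alone stood above the rest, and the signal was well above background on 1 of 2 tumor skin arrays, 2 of 3 papilloma arrays and 1 of 2 tumor arrays. It fell by 1.18 (SE 0.126, adjusted p = 0.00178) in papilloma against papilloma skin and by 1.40 (SE 0.138, adjusted p = 0.0209) in tumor skin against papilloma skin. Papilloma 1 and tumor skin 2, on the lower side, were not well above background, so the sizes of both falls are uncertain. The tumor difference was -0.23 (interval -0.54 to 0.09, adjusted p = 0.331), but tumor skin 2 and tumor 2 were not well above background, so this probe gives no measure of a fall in tumors. The papilloma call held with slide in the model (-1.20, adjusted p = 0.0299) and without papilloma skin 1 and tumor 1 (-1.19). The call between the skins was lost in both (-1.44, adjusted p = 0.292, and -1.41) and without any single array (-1.46 to -1.35). Over all probes, 145 were called between the skins, against 0 with slide in the model and 7 to 9 without 1 papilloma array. The loss was therefore not particular to this probe.

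The scanner file of papilloma skin 1 also departed from the table for Siglecg. After quantile normalization A_51_P305052 read 5.52 on papilloma skin 1 and 9.60 on papilloma skin 2, against 7.42, 7.98 and 7.35 in papilloma. The difference between papilloma and papilloma skin was then 0.024, and it was -2.35 over the 6 arrays with full spike-in slopes, which leave out papilloma skin 1. In that scaling the median of all probes stood at 0.13 in this comparison.

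**Figure D2:**
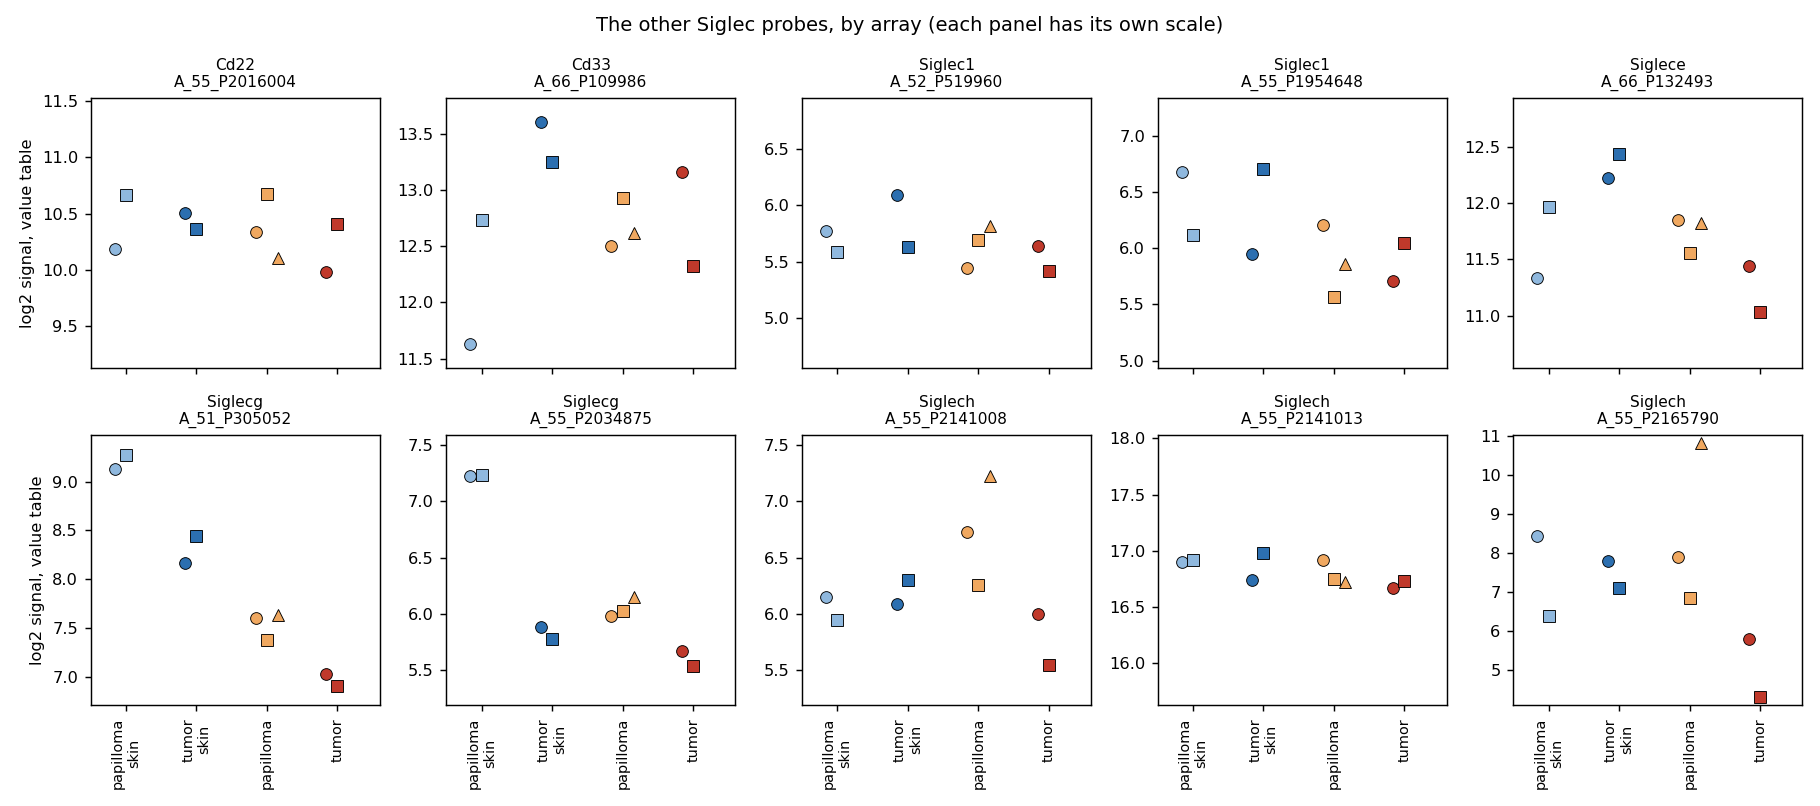
Log2 signal of each array in the deposited table for the 10 Siglec probes other than Siglec5, by group, with point shape for the replicate (circle 1, square 2, triangle 3); each panel has its own axis. Siglecg A_51_P305052 runs from 9.27 in papilloma skin to 6.92 in tumor with no overlap between groups, and Siglech A_55_P2165790 spreads from 4.31 to 10.82.

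Cd22, the other Siglec of B cells, was flat. Its log2 level was 9.98 and 10.40 in tumor, 10.51 and 10.37 in tumor skin, 10.33, 10.67 and 10.10 in papilloma and 10.19 and 10.66 in papilloma skin. All 4 groups overlapped, the difference between tumor and tumor skin was -0.24 (interval -0.81 to 0.32, adjusted p = 0.574) and that between papilloma and papilloma skin -0.05 (interval -0.57 to 0.47, adjusted p = 0.927). The AACC repeat in the probe, shared with other genes, may add to this level, and its part was not tested.

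Siglec1, the macrophage receptor, lay near the detection limit. A_55_P1954648 was at 6.67 and 6.12 in papilloma skin, 5.95 and 6.70 in tumor skin, 5.57 to 6.2 in papilloma and 5.71 and 6.05 in tumor, with overlapping groups in each lesion comparison. Its difference was -0.45 (interval -1.17 to 0.28, adjusted p = 0.407) for tumor and -0.52 (interval -1.18 to 0.14, adjusted p = 0.362) for papilloma. A_52_P519960 ranged from 5.42 to 6.09 over the 9 arrays and had a mean level below 6. Its signal was well above background only on papilloma skin 1, tumor skin 1 and tumor 1, where 90.7% to 95% of all probes were. On the other arrays, all 3 papilloma arrays among them, it gives only a bound.

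The 3 Siglech probes did not behave alike. The repeat-bearing A_55_P2141013 was at 16.67 to 16.98 on all 9 arrays, with a tumor difference of -0.16 (interval -0.50 to 0.18, adjusted p = 0.546) and a papilloma difference of -0.11 (interval -0.42 to 0.20, adjusted p = 0.704). A_55_P2141008 was at 6.73, 6.26 and 7.23 in papilloma and at 5.55 to 6.30 on the other arrays, and was not called, with a papilloma difference of 0.69 (interval 0.06 to 1.32, adjusted p = 0.198). A_55_P2165790 was at 8.43 and 6.39 in papilloma skin, 7.79 and 7.10 in tumor skin, 7.91, 6.85 and 10.82 in papilloma and 5.80 and 4.31 in tumor. Its replicates spread widely, with an SD of 2.05 in papilloma and 1.45 in papilloma skin, and papilloma 1 and tumor 2 were not well above background. The difference between tumor and tumor skin was -2.39 (interval -5.16 to 0.39, adjusted p = 0.248), and it was called with the replicate number as a block (-2.39, adjusted p = 0.0402). In the scanner files the peak of this probe, 12.36, was on papilloma 2 and not on papilloma 3, the pair of columns that were each closest to the file of the other.

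**Figure D3:**
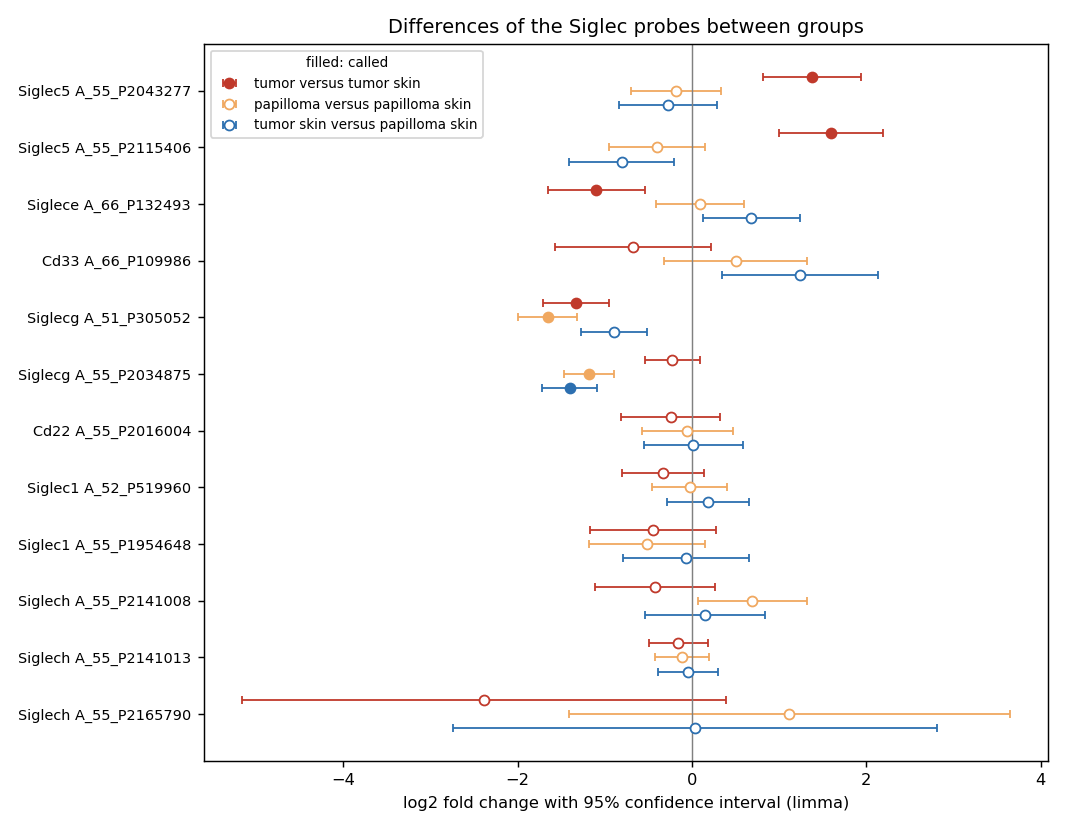
Log2 difference of each of the 12 Siglec probes with its 95% confidence interval from limma for tumor against tumor skin (red), papilloma against papilloma skin (orange) and tumor skin against papilloma skin (blue); filled points were called. Both Siglec5 probes were called higher in tumor against tumor skin, whereas the calls of Siglece and Siglecg were all lower.

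Over the 12 probes, 4 were called in tumor against tumor skin, against 4.21% of all probes. Of these, 2 were higher, both of Siglec5, against 2.71% of all probes, and 2 were lower, Siglece and Siglecg A_51_P305052, against 1.51%. In papilloma against papilloma skin 2 were called, both of Siglecg and lower, where 3.18% of all probes were called and 1% were called lower. Groups did not overlap there for 3 probes (37.6% of all probes). Between tumor and papilloma none was called (0.447% of all probes were; 8032 had an unadjusted p below 0.05), and the groups did not overlap for 7 (36.2%). Between tumor skin and papilloma skin 1 was called, Siglecg A_55_P2034875, which was lower (0.26% of all probes were called and 0.122% were called lower), and 5 did not overlap (48.9%). The test of the difference between the stages called none (0.0269% of all probes were called; 8174 had an unadjusted p below 0.05). Groups did not overlap for 9 probes in tumor against tumor skin, against 52.1% of all probes, and 7 of them were lower, against 26.4%. The median difference of the 12 probes was -0.38 there (-0.02 over all probes) and -0.08 in papilloma against papilloma skin (-0.01 over all probes). With 2 or 3 arrays a group and 5 residual degrees of freedom, the precision of each difference is limited by the number of arrays. It also depends on the spread of each probe. In tumor against tumor skin the SE was 0.138 for Siglecg A_55_P2034875 and 1.21 for Siglech A_55_P2165790.

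The downstream genes of ITIM signaling, SHP phosphatases and SRC-family kinases among them, mostly did not pass the test. Of 11 probes for 10 genes, 1 was called higher in tumor against tumor skin and 2 in papilloma against papilloma skin, and none lower, with medians of -0.03 and 0.01. Socs3, a cytokine-induced inhibitor of JAK signaling that binds the ITIM of CD33-related Siglecs, rose by 1.07 (adjusted p = 0.0168) and 1.11 (adjusted p = 0.0112). Of the 2 probes of Syk, a kinase of activating receptors, A_55_P2172867 rose by 1.08 (adjusted p = 0.0191) in papilloma and A_55_P1962946 differed by 0.23 (adjusted p = 0.615). The calls of Socs3 were lost without papilloma skin 1 and tumor 1 (adjusted p = 0.0953 and 0.115), as was that of Syk (adjusted p = 0.102). Ptpn6, which encodes SHP-1, differed by -0.55 (adjusted p = 0.114) in tumor and -0.10 (adjusted p = 0.8) in papilloma. Tyrobp, which encodes DAP12, the adaptor of Siglec-H, differed by -0.48 (adjusted p = 0.121) and -0.38 (adjusted p = 0.219), and Hcst, which encodes DAP10, by -0.76 (adjusted p = 0.0784) and -0.70 (adjusted p = 0.102).

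Genes that make the ligands of Siglecs changed little as a group. Of 28 sialyltransferase probes, 1 rose and 1 fell in each lesion comparison, with medians of -0.08 in tumor and -0.01 in papilloma. St3gal1, which caps O-linked sugars with sialic acid, rose by 2.22 (SE 0.141, adjusted p = 0.000482) in tumor and 1.26 (SE 0.129, adjusted p = 0.00147) in papilloma with A_51_P301804, and its second probe, A_65_P03728, differed by 0.82 and 0.79, below the limit of 1. St3gal5, which makes the ganglioside GM3, changed by -1.04 (adjusted p = 0.0264) and -1.85 (adjusted p = 0.002). These calls held without papilloma skin 1 and tumor 1, and that of St3gal5 in tumor was lost with slide in the model (-1.09, adjusted p = 0.162). That call was also lost when tumor skin 1, tumor skin 2, papilloma 3 or tumor 2 was left out. Of 10 probes for sialic acid supply, 1 was called, a probe of Cmah, which hydroxylates sialic acid and thereby changes the ligands that Siglecs prefer. It fell by 1.48 (adjusted p = 0.0266) in tumor, where the other Cmah probe differed by -0.80 (adjusted p = 0.121). The Cmah call was lost when tumor skin 1, tumor skin 2, papilloma 3 or tumor 2 was left out. Of 12 probes of sialylated counter-receptors, 1 was called, a probe of Selplg, the selectin ligand PSGL-1, which fell by 1.56 (adjusted p = 0.0118) in tumor. The Selplg call was lost without tumor 2. None of 5 probes for sialidases and the sialic acid esterase was called in either comparison. Neither Mag nor Siglec15, the other Siglec genes on the array, was called.

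SiglecF is also an eosinophil protein, so eosinophil markers were set beside it. Of 13 eosinophil probes, 7 were lower and none higher in tumor against tumor skin (median -1.46), and 10 were lower and none higher in papilloma against papilloma skin (median -1.95). Ear2, an eosinophil ribonuclease, changed by -3.29 (adjusted p = 0.00647) and -3.87 (adjusted p = 0.00212), and Ccr3, the eotaxin receptor, by -2.03 (adjusted p = 0.00131) and -2.29 (adjusted p = 0.000324). The mean log2 level of the list was 6.67 to 7.01 in tumor, 7.98 to 8.16 in tumor skin, 6.87 to 7.20 in papilloma and 8.95 to 9.11 in papilloma skin. The list mean was lower in both kinds of lesion than in the skin around them. The part of eosinophils in the Siglec5 levels was not tested. Epx, the eosinophil peroxidase, averaged 5.18, 5.04, 5.56 and 6.10 in these groups and was well above background on 3 of 9 arrays. Without papilloma skin 1 and tumor 1, 7 and 8 eosinophil probes were lower. In the quantile-normalized scanner files none was called, with 12 and 10 of 13 differences negative, so 3 eosinophil probes turned to a positive papilloma difference there.

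**Figure D4:**
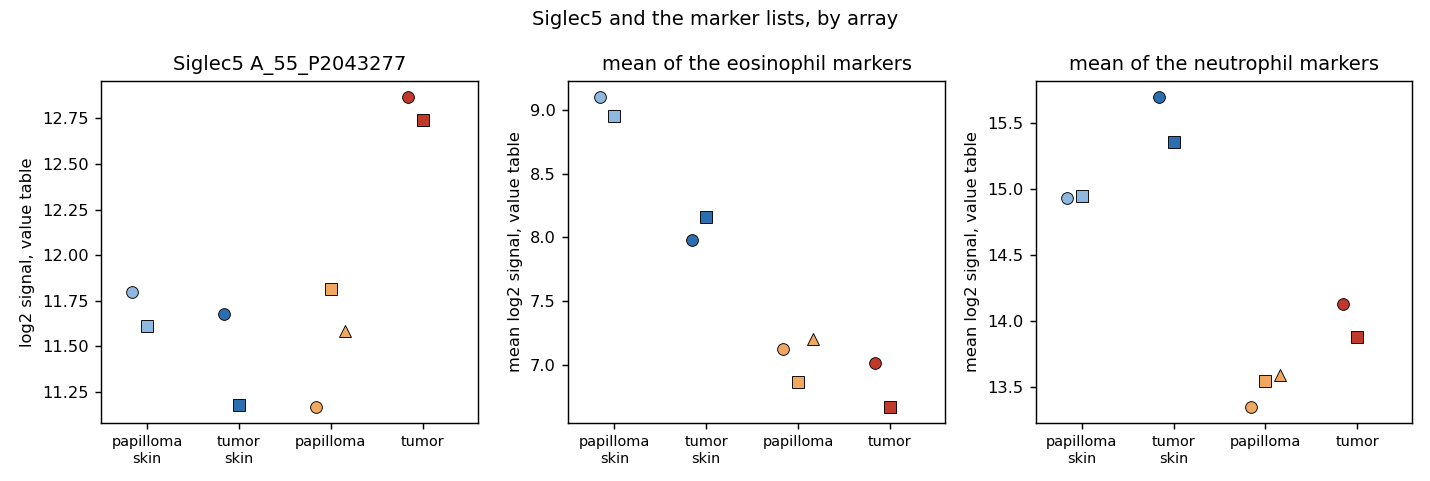
Log2 signal of Siglec5 A_55_P2043277 (left) beside the mean log2 signal of the eosinophil (middle) and neutrophil (right) marker probes on each array of the deposited table; point shape gives the replicate as in the plots of single probes. The tumor arrays are highest for Siglec5, and their eosinophil mean, 6.67 to 7.01, overlaps that of papilloma and lies below both skins.

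Neutrophil markers differed between the groups as well. Of 13 probes, 7 were lower in tumor against tumor skin and 5 in papilloma against papilloma skin, none higher, among them Camp, the cathelicidin of secondary granules, with differences of -3.88 and -4.12 by A_55_P2158102, and Ngp, another granule protein, with -3.39 and -3.27. The list mean was 13.88 to 14.13 in tumor, 15.36 to 15.70 in tumor skin, 13.35 to 13.59 in papilloma and 14.94 on both papilloma skin arrays. Without papilloma skin 1 and tumor 1 the counts were 8 and 5, and with slide in the model 3 and 4. In the scanner files scaled to the 75th percentile, where the median of all probes was -0.41, the papilloma differences of this list had a median of 0.14.

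Among the other cells known for Siglecs, B cell markers gave 1 call among 12 probes in tumor against tumor skin and none in papilloma. The call was Cd79b, the signaling chain of the B cell receptor, which fell by 3.06 (adjusted p = 0.0162 in limma). It was lost without tumor skin 2, tumor 1 or tumor 2, with differences of -3.37 to -2.74 over the arrays left out. Only 6 of these 12 probes reached the mean level of 6 that a call requires. The list mean was 5.96 to 5.99 in tumor, 6.41 to 6.74 in tumor skin, 6.09 to 6.44 in papilloma and 6.31 to 6.37 in papilloma skin. Of 18 monocyte and macrophage probes, 2 were lower in each lesion comparison, both of Emr1, a macrophage surface antigen, with differences of -2.17 and -2.04 in tumor and -2.94 and -3.09 in papilloma. Of 14 probes of plasmacytoid dendritic cells 1 was lower in tumor and none in papilloma. Keratinocyte probes were higher for 5 of 15 in tumor and 4 of 15 in papilloma, mast cell probes gave no call among 9, T cell probes 1 lower of 11 in tumor, and dendritic and Langerhans cell probes 2 lower of 14 in tumor and 1 higher in papilloma. The part of these cell types in the Siglec differences was not tested.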

How the data were processed

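Expression in sorted neutrophils was measured on 9 Agilent mouse arrays, with 1 color (Cy3) each. For each array the authors deposited Feature Extraction 10.7.3.1 output, with background-subtracted fluorescence intensity per spot, and a table of log2 values, which the study's methods describe as quantile normalized and corrected for the chip. Which of these steps the table holds is not stated. limma 3.58.1 in R 4.3.3 was fitted to the log2 values of all 55681 probes, each probe on its own, with the 4 groups over 9 arrays. p-values were adjusted over all probes by Benjamini-Hochberg. Calls used the limits given above for adjusted p, difference and level. Tested on simulated data with 200 probes shifted by 2 in tumor against tumor skin, among 55681, the fit recovered 63%, and 2 other probes were called. All other simulated probes had the same mean in every group, with independent noise and no slide effect. The recovery therefore does not give the share of real differences that the fit finds in these data. Scanner files served as an alternative: processed signals without outlier flags, averaged per probe (55155 probes), scaled to the 75th percentile or quantile normalized, or normexp with an offset of 50. Further alternatives concerned the slide, replicate block, array weights, level and dim-probe filters, gene medians, and each array left out. Fits over 6 arrays, array weights on scanner files and the settings of the gene lists were added after seeing the data. Of the fixed gene lists, at most 4 called genes per list and direction could be named, beside ITIM signaling, the adaptors, Ly6g and Epx, and the 5 probes most like Siglec5 were named; S100a9, Csf3r, Mag and Siglec15 were chosen after their values were seen. The members and lists were chosen with earlier results of these data known. Sequences, probe positions (mm9) and gene names came from the scanner files, and tables and plots were made with matplotlib 3.10.9 and pandas 2.3.3 under Python 3.11.15. Replicate arrays held pooled RNA. The p-values measure the spread between arrays in the deposited values, after any correction they hold, which can be smaller than the measured spread. For Siglecg A_55_P2034875, papilloma skin 1 and 2 read 7.23 and 7.24 in the deposited values. In the quantile-normalized scanner files they read 4.39 and 7.51.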

Additional observations from a re-analysis of the deposited data

How the results depend on the processing

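The Siglec5 difference between tumor and tumor skin kept its sign in all settings. For A_55_P2043277 and A_55_P2115406, in that order, it missed the limma threshold with slide in the model (1.28 and 1.45), without the columns papilloma skin 1 and tumor 1 (1.31 and 1.64), and in the scanner files scaled to the 75th percentile (0.87 and 1.61), quantile normalized (1.08 and 1.72), with array weights added (1.08 and 1.72), with slide added (1.26 and 1.37), after normexp (1.14 and 1.44) and over the 6 arrays with full spike-in slopes (1.29 and 2.17). In the same 6 columns of the table A_55_P2043277 missed it too (1.57). Leaving out 1 array gave 1.13 to 1.63 and 1.33 to 1.86. The Siglec5 difference between papilloma and papilloma skin did not keep its sign. It was -0.18 and -0.40 in the deposited values against 0.91 and 0.74 in the scanner files scaled to the 75th percentile. The difference between tumor and papilloma passed with array weights (1.30 and 1.21) and, for A_55_P2043277, among probes well above background in a group (1.28) and without tumor skin 1 or tumor skin 2, in a range of 1.11 to 1.43 over the arrays left out.

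Members called in tumor against tumor skin numbered 2 without the columns papilloma skin 1 and tumor 1, 0 with slide in the model, 0 in each scanner setting and 1 to 4 with 1 array left out (1 without tumor 2, 2 without tumor 1 or tumor skin 2). In papilloma against papilloma skin they numbered 0 in each scanner setting. In tumor against papilloma they numbered 2 with array weights, 1 among probes well above background in a group and 0 to 1 with 1 array left out. In tumor skin against papilloma skin they numbered 0 with array weights, with slide, in the scanner settings, in the 6 table columns, without the 2 doubted columns and with any array left out (0 to 0). Siglecg A_51_P305052 turned to 0.024, 0.13 (array weights) and 0.14 (slide) in papilloma against papilloma skin in quantile-normalized scanner values. Signs were compared only for values called in at least 1 setting. Over all probes, 2346 were called in tumor against tumor skin, 209 with slide, 1759 without the doubted columns, 804 without tumor 2 and 0 from scanner files, where 925 to 2335 had an unadjusted p below 0.05 over 9 arrays and 7807 over 6. In papilloma against papilloma skin 1769 were called, 981 with slide and 1018 without the doubted columns. In tumor against papilloma 0.447% of all probes were called, 0.756% with array weights and 0.749% among the 36433 probes well above background in a group. Between tumor skin and papilloma skin 145 were called, 8 with array weights, 0 with slide and 7 to 9 without 1 papilloma array. With so few calls over all probes, the member counts of 0 between the skins say little about the members. The causes were not tested.

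The labels do not say that replicate numbers pair the arrays, and over 12 same-numbered pairs the deviations correlated at -0.959 to 0.534, with 4 pairs above 0.1. The numbers partly follow the slides, since all arrays numbered 1 lay on slide 1. Tumor skin and tumor correlated at 0.393. Between groups of 2 arrays the deviations mirror each other. The second same-numbered pair then repeats the value of the first, so the 12 pairs are not independent. With the replicate block, Siglec5 stood at 1.38 (adjusted p = 0.0834) and 1.59 (adjusted p = 0.0716), which ended both calls. The 2 members called in tumor against tumor skin were Siglecg A_51_P305052 and Siglech A_55_P2165790, which was not called without the block, and 0 were called in tumor skin against papilloma skin. The block gave 737 calls over all probes in tumor against tumor skin and 552 in papilloma against papilloma skin. Crossing the numbers in the 2 skins gave 0 calls, as did the numbers as given and no block over those 4 arrays, so these fits cannot tell the pairings apart.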
